A study of Homo sapiens with 16 samples.

Results

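The regions described here are stretches of the genome in which TOP2B peak intervals were listed in all 4 conditions of the study. They were chosen by pooling the intervals of the 4 TOP2B lists on chromosomes 1 to 22, merging intervals that overlapped by at least 1 bp into union regions, and keeping each union region that held at least 1 interval of every list. This gave 667 regions out of 28771 union regions. Presence in the lists was therefore what chose them, and it is not a finding. The cells were PC9, an established human lung adenocarcinoma line whose growth depends on mutant EGFR, a receptor tyrosine kinase. The assay was CUT&RUN: an antibody tethers a nuclease to its target in intact nuclei, and the DNA fragments cut loose there are sequenced. The 4 groups were wild-type PC9 left untreated, METTL7A knockout PC9 left untreated, wild-type PC9 under osimertinib and METTL7A knockout PC9 under osimertinib. Osimertinib inhibits EGFR, and treated cells were kept in it for 6 to 8 weeks with doses raised from 100 nM. All groups came from the same line, in serum-containing medium, and the sources used here do not say whether the knockout line is a clone or a pool.

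For each group the authors deposited 1 list of intersected peaks, drawn from 2 replicate TOP2B libraries. A list has no replicate, so no spread between replicates could be measured and no difference between conditions was tested. Nothing in the labels says whether replicates came from separate cultures. The untreated wild-type list held 15018 intervals on chromosomes 1 to 22, the untreated knockout list 12141, the treated wild-type list 9632 and the treated knockout list 7168. Read depth and DNA copy number are unknown, because the lists do not hold them. Percentages carry exact Clopper-Pearson 95% intervals, which cover counting error only, and neighbouring regions are not independent. Positions are on GRCh37, counted from 1. Genes, promoters, repeats and bases at these positions were not examined, because no genome or annotation of that build was used here, and for the same reason the METTL7A locus was not used to check the genotype labels.

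TOP2B is the beta isoform of DNA topoisomerase II, an enzyme that cuts both strands of a DNA duplex, passes another duplex through the break and reseals it. It is known for relieving torsional strain in transcribed and looped chromatin, and it is found at many active promoters and at sites bound by CTCF and cohesin, which anchor chromatin loops. It is the isoform present in cells whether or not they divide. METTL7A belongs to the methyltransferase-like protein family.

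Regions held by all 4 lists made up 2.32% of the union regions (2.15 to 2.5). Most union regions, 21064 or 73.2%, came from a single list. A further 4934 were held by 2 lists and 2106 by 3. The regions that came closest to the full set were missing from the treated wild-type list only, and there were 1419 of these. Another 472 were missing only from treated knockout, 166 only from untreated knockout and 49 only from untreated wild type. The treated wild-type list was thus the one that most often left a region short of the full set. Of the 2086 regions held by the other 3 lists, 32% were also in treated wild type (30 to 34). The same share was 58.6% for treated knockout (55.6 to 61.4), 80.1% for untreated knockout (77.2 to 82.7) and 93.2% for untreated wild type (91.1 to 94.9). These regions were merged with the fourth list included, and its intervals can join those of the other 3. Merging without untreated wild type gave 630 regions held by the other 3 lists, against 716 here. The numbers were 810 against 833 for untreated knockout, 2076 against 2086 for treated wild type and 1138 against 1139 for treated knockout. The 93.2% is therefore partly built in and is not comparable with the other shares.

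**Figure D1:**
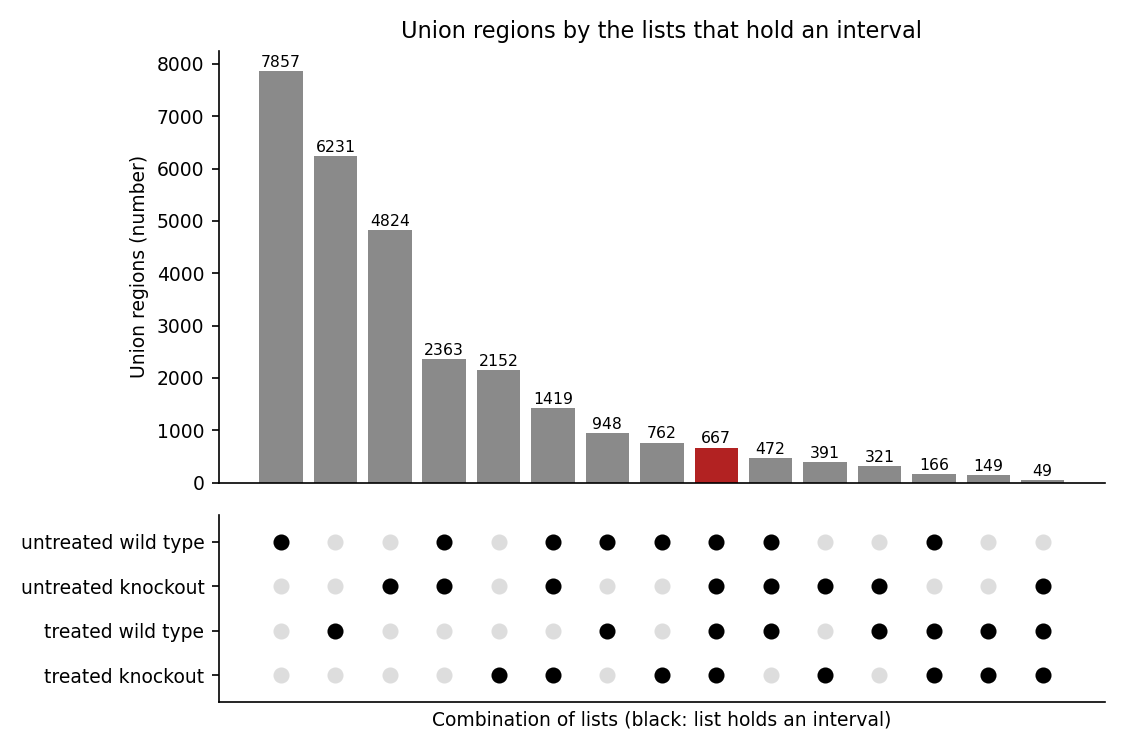
The bars give the number of union regions for each combination of lists, and black dots under a bar mark the lists that hold an interval. The red bar is the 667 regions held by all 4 lists, and the 1419 regions missing only from treated wild type form the tallest bar among combinations of 3 or more lists.

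The 667 regions held a small part of each list. In untreated wild type 797 intervals lay in them, or 5.31% of the list (4.95 to 5.68). In untreated knockout the number was 1341, or 11% (10.5 to 11.6), and in treated wild type 1064, also 11% (10.4 to 11.7). Treated knockout, the shortest list, had 1388 intervals in them, or 19.4% (18.5 to 20.3). Counted by length, the regions took in 12.1% of the bases of the untreated wild-type list, 16.2% of untreated knockout, 12.3% of treated wild type and 24.2% of treated knockout.

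These were wide regions. Their median width was 7750 bp (interquartile range 5100 to 11550, full range 600 to 48600), compared with 1850 bp over all union regions and 5000 bp for regions missing only from treated wild type. A merged region grows with each interval it takes in, so width and membership are linked by construction. Among union regions over 16000 bp, 91 of 130 were in all 4 lists (70%, 61.3 to 77.7). Between 8000 and 16000 bp the share was 36% (32.2 to 39.9), between 4000 and 8000 bp 8.67% (7.67 to 9.76) and between 2000 and 4000 bp 0.96% (0.773 to 1.18). Narrow members were rare, with 7 of 10455 union regions between 1000 and 2000 bp and 2 of 5297 up to 1000 bp. From 2000 bp upward the share also grew with width among regions held by the other 3 lists. Treated wild type had an interval in 71.1% of those over 16000 bp (62.4 to 78.8) and in 16.1% of those between 2000 and 4000 bp (13.1 to 19.4). These widths take in any treated wild-type intervals, so the link by construction holds here too.

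Inside the regions, untreated wild-type intervals formed the broad frame. They covered 89.8% of the summed width of the 667 regions, untreated knockout intervals 56.8%, treated knockout intervals 33.4% and treated wild-type intervals 23.2%. In 552 regions (82.8%) untreated wild type had a single interval, and in 180 regions (27%) that 1 interval ran from edge to edge. The other lists more often broke the same stretch into pieces. Untreated knockout had a single interval in 332 regions and up to 10 in others, treated knockout a single interval in 335 and up to 13, and treated wild type a single interval in 432 and up to 8. Of the treated knockout intervals in the regions, 78.1% lay wholly inside an untreated wild-type interval, as did 73.4% of the treated wild-type and 63.8% of the untreated knockout intervals. Counted by bases, the shares inside were 90.4, 85.6 and 86.9% in that order. These are near the 89.8% of the summed width that untreated wild-type intervals covered, so such nesting follows largely from that coverage.

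**Figure D2:**
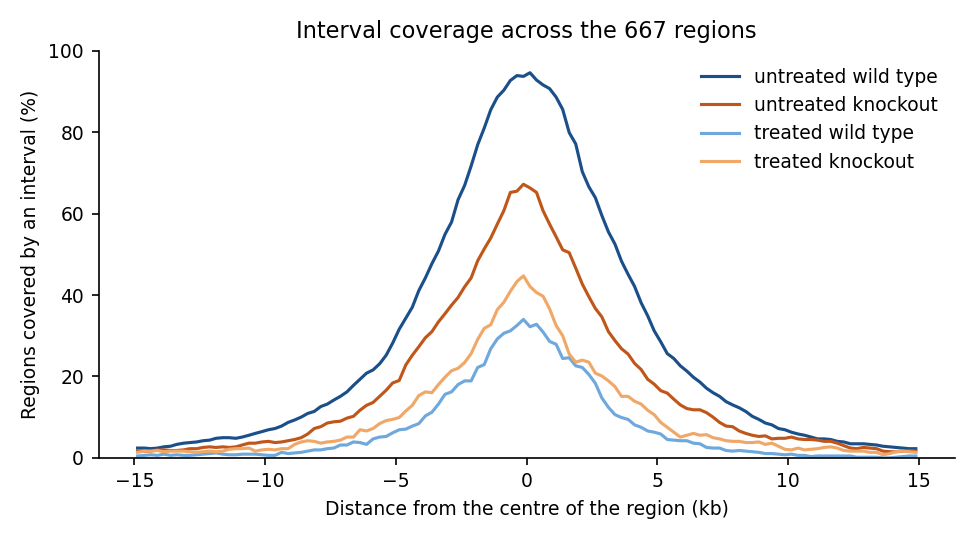
Each line gives the percentage of the 667 regions covered by an interval of that list, against distance in kb from the centre of the region. At the bins next to the centre untreated wild type covered 93.7 and 94.6% of the regions, untreated knockout 67.2 and 66.3%, treated knockout 44.7 and 42.1%, and treated wild type 34 and 32.2%.

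Being in all 4 lists did not mean that the same bases were listed 4 times. A base common to all 4 lists existed in 368 of the 667 regions (55.2%, 51.3 to 59). In the other 299 the lists were linked through a chain of overlaps, and in 239 of these (79.9%, 74.9 to 84.3) a single untreated wild-type interval overlapped intervals of all 3 other lists. Over the summed width of all the regions, 32.7% of the bases were in 1 list, 38.3% in 2, 21.9% in 3 and 7.01% in all 4. Where a common stretch existed it measured 900 bp at the median (interquartile range 500 to 1350), or 10.7% of the width of its region, and it reached 1000 bp in 162 regions.

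The treated lists were the pair that met least often, and they also covered the least of the regions. An untreated wild-type interval directly overlapped an untreated knockout interval in 657 regions (98.5%), a treated wild-type interval in 642 and a treated knockout interval in 643. Treated wild type and treated knockout overlapped each other directly in 486 (72.9%). Within the regions, 44% of the bases in treated wild-type intervals were also in a treated knockout interval. Treated knockout intervals covered 33.4% of the summed width. In turn, 30.6% of the bases in treated knockout intervals were in a treated wild-type interval, and such intervals covered 23.2% of the summed width. In the remaining 181 regions the treated intervals of the 2 genotypes lay at separate positions of the same region.

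The widest region, chr19:56286651-56335250, shows this layout (it was picked after its values were seen). It spans 48600 bp and held 28 intervals, of which 2 were from untreated wild type, 8 from untreated knockout, 6 from treated wild type and 12 from treated knockout. The covered length was 45100 bp in wild type and 44300 bp in the knockout without drug, and 7850 and 22600 bp under osimertinib. The untreated lists filled nearly the whole stretch, and treated wild type covered the least of it. Only 5800 bp were common to all 4 lists. The next widest were chr14:103974301-104021900, with 24 intervals and 1950 common bp, and chr19:52691551-52735050, with 24 intervals and 1200 common bp.

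**Figure D3:**
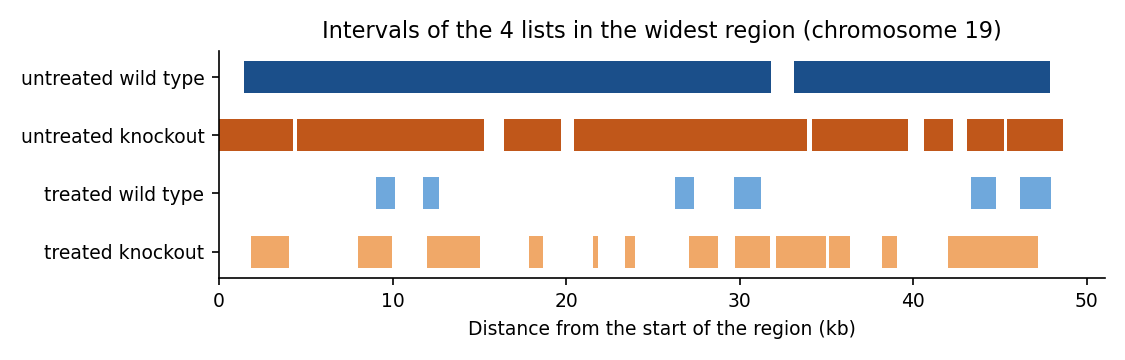
Each row shows the intervals of 1 list in the widest region, on chromosome 19, as bars against distance in kb from the start of the region. Untreated wild type has 2 long intervals, untreated knockout 8, treated wild type 6 short intervals and treated knockout 12.

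The regions fell on 18 of the 22 chromosomes, and 3 chromosomes held 52.8% of them. Chromosome 20 had 159 (23.8% of the regions, against 13.3% of all union regions), chromosome 2 had 114 (17.1 against 11.8%) and chromosome 7 had 79 (11.8 against 9.33%). Chromosomes 19, 14, 12 and 10 followed with 69, 58, 45 and 31. As a share of its union regions, chromosome 14 stood at 6.04% (4.61 to 7.73), chromosome 10 at 4.63% (3.17 to 6.51), chromosome 20 at 4.15% (3.54 to 4.83), chromosome 12 at 4.12% (3.02 to 5.48) and chromosome 19 at 4.09% (3.19 to 5.14), all with intervals above the 2.32% over chromosomes 1 to 22. Chromosome 2, at 3.35% (2.77 to 4.01), and chromosome 7, at 2.94% (2.34 to 3.65), also lay above it. Several chromosomes with many union regions had few or no members. Chromosome 9 had 0 of 1188 (exact upper limit 0.31%, and 0.253% if a count of 0 is taken to allow up to 3), chromosome 17 had 5 of 1429 (0.35%, 0.114 to 0.815), chromosome 3 had 7 of 1361 (0.514%, 0.207 to 1.06) and chromosome 5 had 17 of 2330 (0.73%, 0.426 to 1.17).

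**Figure D4:**
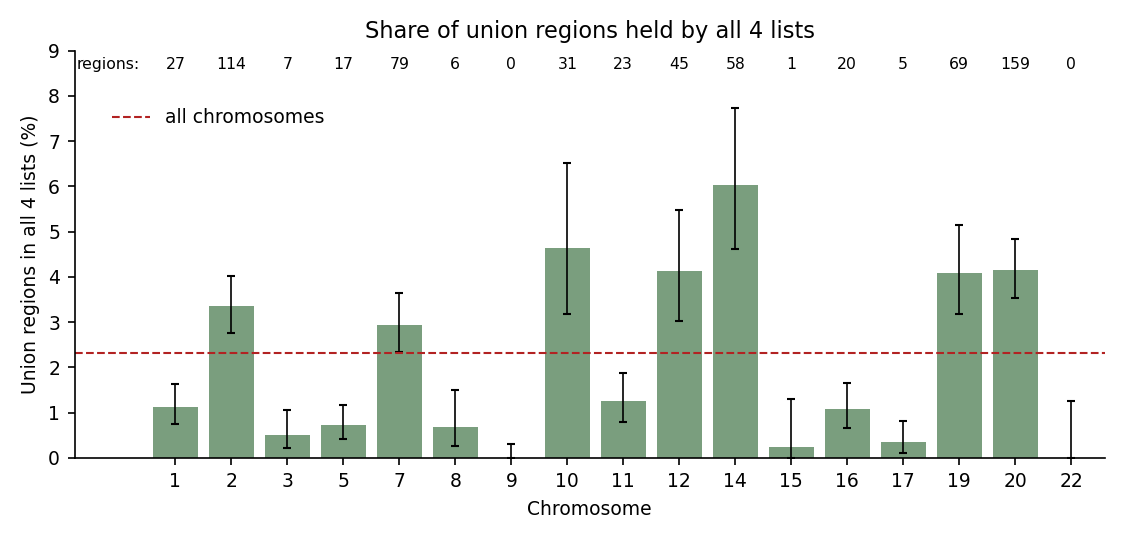
The bars give the percentage of union regions of each chromosome that were in all 4 lists, for the 17 chromosomes with at least 200 union regions, with exact 95% intervals for counting error and the number of such regions above each bar. The dashed line is the 2.32% over all chromosomes; chromosomes 2, 7, 10, 12, 14, 19 and 20 lie above it with their whole interval, and the other 10 lie below it.

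The list that withheld a region differed by chromosome. Chromosome 17 had 456 untreated and 1056 treated wild-type intervals, but 101 untreated and 62 treated knockout intervals. Chromosome 5 had 679 and 1619 in wild type and 420 and 172 in the knockout. On these chromosomes the treated knockout list was the sparsest, whereas chromosome 1 had 461 intervals in treated wild type, the fewest of its 4 lists. Of the 223 regions there that were in the other 3 lists, 12.1% were also in treated wild type (8.13 to 17.1). Chromosomes 7 and 20 had shares of 23.9% (19.4 to 28.9) and 28.6% (24.9 to 32.6). Chromosome 2 reached 53.8% (46.8 to 60.6), and chromosome 12 had 78.9% (66.1 to 88.6).

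How well the 4 lists coincided also varied between chromosomes. A common base existed in 68 of 79 regions on chromosome 7 (86.1%, 76.5 to 92.8) and in 58 of 69 on chromosome 19 (84.1%, 73.3 to 91.8). Chromosome 20 had a common base in 69 of 159 (43.4%, 35.6 to 51.5) and chromosome 2 in 46 of 114 (40.4%, 31.3 to 49.9). The counts were 17 of 45 for chromosome 12 (37.8%, 23.8 to 53.5) and 6 of 23 for chromosome 11 (26.1%, 10.2 to 48.4). The regions of chromosomes 7 and 19 thus shared bases among all lists more often than those of chromosomes 2, 12 and 20, with intervals that did not overlap. Counting only regions with a common base, chromosome 7 rose to 18.5% of the set, beside 18.8% for chromosome 20.

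Of the 667 regions, 470 (70.5%) lay within 50 kb of another of them, with a median gap of 13.7 kb to the nearest. Over all union regions, which are far more numerous, 92.9% had a neighbour within 50 kb. Windows of 1 Mb with a member numbered 155, out of 1398 with any union region, and 18 of them had 10 or more members. The window at 55 to 56 Mb of chromosome 7 had the most, 31 of its 114 union regions (27.2%, 19.3 to 36.3). It was followed by a window of chromosome 2 at 241 to 242 Mb with 28 of 125. On chromosome 20, the window at 61 to 62 Mb had 27 of 121 and that at 62 to 63 Mb had 23 of 122, and on chromosome 19 the window at 55 to 56 Mb had 19 of 126. Of the 412 windows with at least 20 union regions, 282 had no member. Among these were 68 to 69 Mb of chromosome 7, with 142 union regions, and 116 to 117 Mb of chromosome 1, with 118. In both, treated wild type was in 0 regions, while treated knockout was in 57 and 72. At 2 to 3 Mb of chromosome 5, with 111 union regions, the position was the opposite, with treated wild type in 98 and treated knockout in 4.

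Chromosome 7 carries EGFR, and the 31 regions of its 55 to 56 Mb window were examined together. Where the gene itself lies among them was not looked up. DNA copy number of the window in each condition was not examined, and the H2A samples were not used as a control. The number of regions there therefore cannot be read as TOP2B alone. All but 1 had a base common to the 4 lists. Untreated wild type covered between 3100 and 30800 bp of a region (median 8400), untreated knockout between 1750 and 27800 bp (median 8800), treated wild type between 350 and 8100 bp (median 2400) and treated knockout between 1350 and 16100 bp (median 5250). Treated wild type had the lowest minimum, median and maximum. It was not the lowest in every region, and the ranges of all 4 lists overlapped. Of the regions there, chr7:55650001-55663550 had the longest uninterrupted stretch common to all 4 lists anywhere outside chromosome 8, at 6750 bp (chr7:55655501-55662250). Its covered length was 13300 bp in wild type and 10350 bp in the knockout without drug, and 7050 and 10250 bp under osimertinib. The widest in the window, chr7:55612701-55645200, held 22 intervals and was covered over 30800, 27800, 3750 and 15150 bp in the same order. The only region of the window without a common base was chr7:55132351-55135900, with 1 interval per list. Next to the first of these in common length, the longest stretches were on chromosome 5 (chr5:757601-762750) and chromosome 16 (chr16:46388201-46393350), both of 5150 bp.

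Covered length and peak height were then set side by side between lists. Because presence in both lists entered the choice of regions, these values are descriptions. They are given beside the same shares over all union regions held by both lists, which include the members. Members also had to hold intervals of the remaining lists, and width and membership are linked. A gap between a share and its background can therefore come partly from the choice of regions. Covered length is the number of bases of a region in intervals of the list. Height is the deposited maximum of a called peak, the highest coverage within it, divided by the median maximum over the called peaks of its list and used only where the place of the maximum lay inside the region. That was so in 334 regions for untreated wild type, 661 for untreated knockout, 426 for treated wild type, 601 for treated knockout, and 228 for all 4. Lists differ throughout in interval width and in the lowest signal that entered them. Counted in steps of its own list, the lowest was 5 for both wild-type lists, 2 for the untreated knockout and 4 for the treated knockout. The step itself was 0.0392 for untreated and 0.0534 for treated wild type, and 0.0723 for untreated and 0.0379 for treated knockout. Equal numbers of steps are therefore not equal signals.

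Without drug, knockout intervals covered less of the regions than wild-type intervals. The median covered length was 6800 bp in wild type (interquartile range 3975 to 10650) and 4000 bp in the knockout (2250 to 6900), and the knockout had the shorter length in 570 of 667 regions. The median ratio of knockout to wild type was 0.643 (0.457 to 0.871), beside 0.606 over all 4921 regions held by both lists. Length was at least 2-fold lower in the knockout in 204 regions (30.6%, background 36.3%) and at least 2-fold higher in 10 (1.5%, background 2.74%). Heights were close, with medians of 1.45 list medians in wild type and 1.4 in the knockout among the 334 regions compared. Height was at least 2-fold lower in 2 of them (0.599%, background 1.06%) and at least 2-fold higher in 0 (background 0.413%).

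Under osimertinib the wild-type intervals within these regions were shorter than without drug. Median covered length was 6800 bp untreated and 1650 bp treated (interquartile range 1150 to 2700), and treated length was the shorter in 638 of 667 regions. The median ratio of treated to untreated was 0.276 (0.161 to 0.479), beside 0.412 over all 2253 regions held by both lists. At least 2-fold lower length was found in 510 regions (76.5%, background 62.1%), and at least 2-fold higher in 1 (0.15%, background 1.24%). Because members also had to hold both knockout lists, long untreated wild-type coverage is partly built into them. Whether members differ from other regions beyond that was not tested. Among 242 regions with both maxima inside, the median height was 1.45 untreated and 1.09 treated. Height was at least 2-fold lower in 18 (7.44%, background 4.19%) and at least 2-fold higher in 1 (0.413%, background 0.546%).

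In the knockout the lengths under drug were nearer to those without it. Median covered length was 4000 bp untreated and 2100 bp treated (interquartile range 1250 to 3925). The median ratio was 0.588 (0.366 to 0.855), beside 0.625 over all 2526 regions held by both. Length was at least 2-fold lower in 256 regions (38.4%, background 36.8%) and at least 2-fold higher in 20 (3%, background 4%), both near the background. Height had medians of 1.4 and 1.12 among 596 regions, and was at least 2-fold lower in 19 (3.19%, background 2.86%) and at least 2-fold higher in 1 (0.168%, background 0.779%). Whether the change with treatment differed between genotypes was not tested, since each condition has 1 list.

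Between the treated lists, the knockout covered more of a region in 412 of 667 (61.8%, background 55.7%) and the wild type in 246 (36.9%, background 42.9%). This background includes the 667 members. Among the 364 regions held by both treated lists that were not members, the order was reversed, with 44.5% for the knockout and 53.8% for the wild type. The median ratio of knockout to wild type was 1.26 (0.744 to 2.14), beside 1.12 over all 1031 regions held by both. Length was at least 2-fold higher in the knockout in 183 regions (27.4%, background 20.5%) and at least 2-fold lower in 101 (15.1%, background 17.1%). Height was at least 2-fold higher in 6 of 396 (1.52%, background 1.24%) and at least 2-fold lower in 2 (0.505%, background 1.04%). The list with the greater length varied by chromosome. Each background includes the members, which are its larger part on every chromosome named here except chromosome 11, so closeness to it is partly built in. In regions held by both treated lists that were not members, the treated knockout covered more in 40% of 15 on chromosome 7. The share was 50% of 6 on chromosome 19, 80% of 5 on chromosome 14 and 59% of 39 on chromosome 20. On chromosomes 11 and 12 the treated wild type covered more in 51.4% of 35 and 47.8% of 23. The treated knockout covered more in 61 of 69 members on chromosome 19 (88.4%, background 85.3%), 66 of 79 on chromosome 7 (83.5%, background 76.6%), 46 of 58 on chromosome 14 (79.3%, background 79.4%) and 115 of 159 on chromosome 20 (72.3%, background 69.7%). The treated wild type covered more in 17 of 23 members on chromosome 11 (73.9%, background 60.3%) and 29 of 45 on chromosome 12 (64.4%, background 58.8%). Chromosomes 16 and 1 had the treated knockout ahead in 13 of 20 (65%, background 56.2%) and 15 of 27 (55.6%, background 55.6%). Chromosomes 10 and 2 were nearly even, with treated wild type ahead in 17 of 31 (54.8%, background 54.1%) and 63 of 114 (55.3%, background 51.8%). In regions that were not members, the treated knockout was ahead in 41.7% of 12 on chromosome 16 and 55.6% of 18 on chromosome 1. The same share was 50% of 6 on chromosome 10 and 50.6% of 85 on chromosome 2. On chromosome 19 the summed length was 164 kb in treated wild type and 424 kb in treated knockout, while on chromosome 2 it was 258 and 232 kb.

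**Figure D5:**
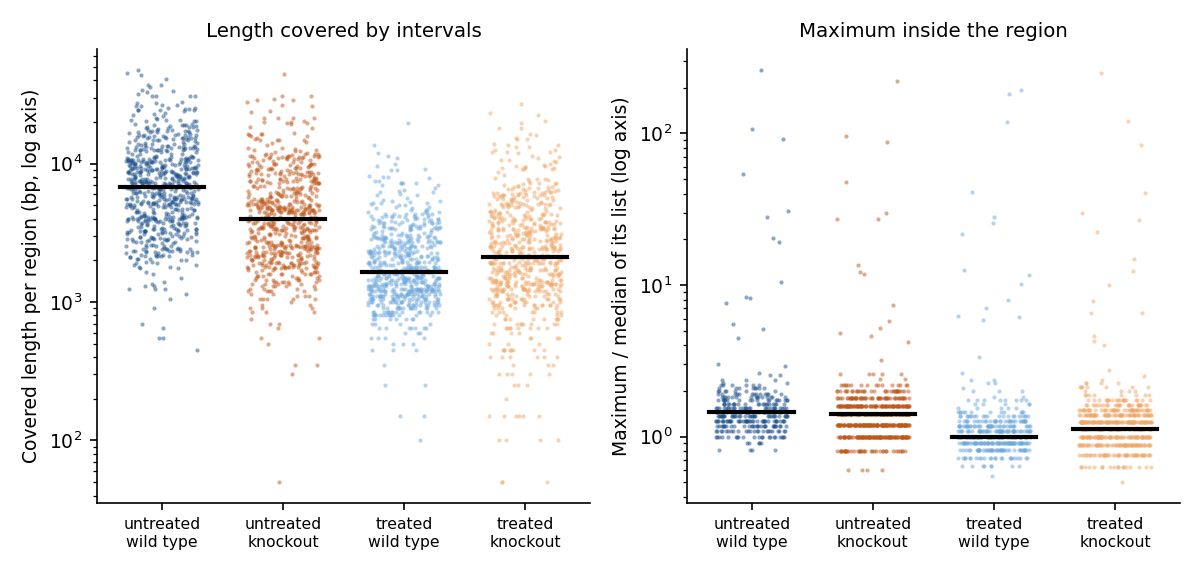
Each point is 1 of the 667 regions, with the length covered by intervals of each list (left, bp) and the maximum inside the region divided by the median maximum of its list (right, 334, 661, 426 and 601 regions), both on log axes; black bars are medians. Covered length has medians of 6800, 4000, 1650 and 2100 bp, and in every list a few points stand far above the rest of the heights.

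Regions missing only from treated wild type had a smaller covered length than the members in the lists they share. A member also takes in treated wild-type intervals, which can join neighbouring intervals of the other lists. Part of this difference can therefore come from the merging. Median covered length was 4250 bp in untreated wild type, 2400 bp in untreated knockout and 1500 bp in treated knockout, against 6800, 4000 and 2100 bp in the members. Median height was 1.27, 1.2 and 1.12 list medians, against 1.45, 1.4 and 1.12. Median heights thus differed in the untreated lists and were equal in treated knockout. The list medians were only 11, 5 and 8 steps in that order, each counted in the steps of its own list. Heights are therefore coarse, and small differences or ties between them carry little weight.

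Height was mostly near the list median where it could be read in every list. Of the 228 with a maximum inside in every list, 121 had all 4 heights at or above 1 list median, 17 had all 4 at or above 2, and 10 had all 4 at or above 5. The ratio of the highest to the lowest of the 4 heights had a median of 1.6 (interquartile range 1.4 to 1.89), and it was at most 1.5 in 79. The form of the regions differed along this scale, a grouping made after the values were seen. In the 10 highest the median width was 2250 bp, a median of 77.9% of the width was common to all 4 lists, and the 4 places of the maximum lay within 500 bp of each other in 10 of 10. The 7 regions with a lowest height from 2 to under 5 had a median width of 2700 bp, a common part of 62.5%, and maxima within 500 bp in 4. In the 211 regions whose lowest height was under 2, the median width was 8700 bp, the common part was 3.2% of the width, and the maxima lay within 500 bp in 3. The distance between the outermost of the 4 maxima was 50 bp at the median in the first set, 325 bp in the next and 4375 bp in the last.

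Ranked by the lowest of the 4 heights, among the 228 regions that have all 4, the first was chr7:61968401-61971350. Without drug its height was 262 list medians in wild type and 220.2 in the knockout, and under osimertinib it was 181 and 251, so that every list placed it far above its own median and the treated wild-type value was the lowest. At chr1:121484051-121485500 the heights were 107 and 95.8 without drug and 119 and 121 under osimertinib, wild type first; that order of the 4 values holds for the regions that follow. The region chr6:58776151-58780200 had 91, 87.6, 193 and 83.7, with treated wild type the highest at 2.3 times the lowest value. The other 3 lists were close to each other there.

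A pair of regions on chromosome 16 followed. At chr16:46416251-46430550 the heights were 53.5, 47.8, 40.9 and 40.2. At chr16:46385801-46393800 they were 28.2, 29.6, 28 and 29.7, which was the narrowest spread of these, 1.06 between highest and lowest, and the 4 maxima had the same midpoint. The same midpoint was also found at chr10:42384801-42385850, with heights of 30.5, 27, 25.5 and 26.6, and at chr1:156186001-156186900, with 10.5, 7.4, 6.27 and 7.87. Among the 228 regions with all 4 heights, these were the 3 with equal midpoints. The places of the maximum themselves shared a base in 5 of the 228.

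The list of the 8 highest was completed by chr1:91852651-91853250, a region of 600 bp with heights of 20.3, 13.6, 12.5 and 12.4, and by chr21:9825401-9827800, with 19.3, 12.2, 11.6 and 10. In both, untreated wild type was the highest and the other lists were close to each other. Not ranked, for lack of an untreated wild-type maximum inside it, was chr16:46393801-46410800 (chosen after its values were seen), with 27 in the knockout without drug and, under osimertinib, 21.8 in wild type and 22.4 in the knockout. Several of these positions lie in parts of chromosomes, next to centromeres among them, known for repeats that this genome build holds in too few copies and where reads of any assay can pile up. Repeat content was not checked and its part in these heights was not tested, so these heights cannot be read as TOP2B alone. All called peaks on chromosomes 1 to 22 that reached 5 list medians had an interval in one of the 667 regions: 14 of 14 for wild type (76.8 to 100) and 15 of 15 for the knockout (78.2 to 100) without drug, and 15 of 15 (78.2 to 100) and 13 of 13 (75.3 to 100) under osimertinib. The sources used here do not say whether the submitters removed positions known for high signal in any assay, and no such removal was made here.

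The heights were least alike at chr15:21315151-21316350, with 8.36, 4.6, 3.36 and 2.12, a ratio of 3.94. Both treated values were lower than both untreated values there. On chromosome 20, chr20:57568351-57591800 had heights of 1.45, 2.6, 0.909 and 1 and a ratio of 2.86, and chr20:57198601-57220050 had 1.45, 2, 0.727 and 1.38 and a ratio of 2.75. In both, untreated knockout was the highest and treated wild type the lowest, and neither had a base common to all 4 lists.

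The rule needs no common base, and beside the 299 regions without any, 11 had a common stretch of 50 bp, a single bin. The first 3 of the 11 by position were chr1:120283701-120287400, chr1:200957301-200966900 and chr4:3588251-3590800. Just outside the rule, 5 of 2073 regions held by 3 lists (chromosome 8 not counted) touched an interval of the missing list without overlapping it. Among them were chr1:144938101-144943000, which lacked treated wild type, chr2:242658901-242662750, which lacked untreated knockout, and chr3:107680901-107684600, which lacked treated knockout. Within 500 bp there were 73 such regions, while for 1310 the nearest interval of the missing list was more than 10 kb away.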

How the data were processed

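The authors profiled TOP2B and histone H2A by CUT&RUN in 16 samples, 8 groups of 2, and the 4 deposited TOP2B lists were used; the 8 H2A samples were not analysed here. The submitters' processing notes name GRCh37 as the build and list SEACR, Bowtie2 2.4.2, bedtools 2.30, deepTools 3.5.1, SAMtools 1.16, FastQC and Trimmomatic. The sources used here do not give the settings of the peak caller, its control or the signal scaling. The lists have no header. Going by the layout of SEACR output, the fourth column was read as a deposited score, the area of the called peak. The fifth was read as a deposited signal, the highest coverage of that peak. The area served only to break ties.

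Intervals were read with pandas 2.3.3, merged by an own script tested on simulated data, and counted by region midpoint in windows of 1 Mb. Maxima belong to the called peak, which can extend past an interval, and were divided by the median of their list. Intervals are exact 95% binomial (scipy 1.17.1). Depth is unknown, so no limit from depth was set. Regions named by position were those highest by their lowest height (8), with the longest common stretch (3), the closest maxima (3), the largest ratio of heights (3), the shortest common stretch (3), those at 55 Mb of chromosome 7, the 5 fullest windows and the 3 nearest outside the rule, none on chromosome 8. The 3 widest regions and 1 on chromosome 16 were added after their values were seen. The regions and all measures were chosen with earlier results of these data known. Alternatives were other overlap and merging rules, fixed widths, stricter or equal-length lists, chromosome X and leaving out a list.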

Additional observations from a re-analysis of the deposited data

How the results depend on the processing

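The number of regions depended on what counted as shared. It was 667 as reported, 368 (1.28% of union regions) with a base common to all 4 lists, 22 (0.0765%) when every pair of lists had to overlap by 50% of both intervals, and 77 (0.199%) with each interval cut to 500 bp around its midpoint. Of the 22, 13 were among the 17 regions with all heights at or above 2. Restricting each list to maxima at or above its median gave 328 (1.73%). Merging across gaps of up to 500 bp gave 725 (2.79%), of which 47.9% had a common base. Requiring only 3 lists gave 630 (2.67%) without untreated wild type, 810 (3.31%) without untreated knockout, 2076 (9.17%) without treated wild type and 1138 (4.25%) without treated knockout. Lists of equal length gave 466 (2.49%) and adding chromosome X 668 (2.29%). With a common base required, the share of intervals in the regions was 2.94% for wild type and 6.81% for the knockout without drug, and 6.83 and 12.9% under osimertinib. With 500 bp intervals it was 0.513, 0.634, 0.81 and 1.07% in that order, and by called peaks 5.1, 11.1, 9.31 and 16.1%; untreated wild type had the lowest share and treated knockout the highest in each of these settings. Among regions with a common base, chromosome 20 held 18.8%, chromosome 2 12.5% and chromosome 7 18.5%. Of the 42 values recomputed, 13 stayed within counting error or 1.5 times the count. No paired analysis was possible because each list joins both replicates of its group. For the same reason no replicate could be left out.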
